A study of Mus musculus with 12 samples.

Results

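The genes described here are 10 markers of adult neurogenesis and of neural progenitors: Sox2, Mki67, Top2a, Eomes, Ccnd2, Neurod1, Sox4, Sox11, Dcx and Igfbpl1. They were chosen by name, with earlier results of these data known. Each was found once among the 23329 genes of the deposited libraries, with the estimated counts of its transcripts added together. Polyadenylated RNA was read from adult hippocampus of C57BL/6 mice that lack NONO (knockout, KO) or carry it (wild type, WT), under the labels CT22 and CT10, which the labels do not spell out. There were 3 libraries in each of the 4 groups, KO CT22, WT CT22, KO CT10 and WT CT10, and 12 in all. The labels used here do not give the knockout allele, the cells that lack the protein, the age in weeks or the sex, nor whether each library had an animal of its own. The p-values below therefore measure only the spread between these libraries, which may be technical.

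New granule neurons are made throughout life in the subgranular zone of the dentate gyrus, a part of the hippocampus. Radial glia-like stem cells, which express Sox2, give rise to dividing intermediate progenitors with Eomes (Tbr2), and these become neuroblasts and immature neurons that turn on Neurod1, the SoxC factors Sox4 and Sox11, and the microtubule protein doublecortin (Dcx). Mki67 and Top2a are read in dividing cells of any lineage, and Sox2 is also expressed by astrocytes, so these 3 do not mark the neurogenic lineage alone. Whether the other genes were read in that lineage alone was not tested either. NONO is a nuclear RNA- and DNA-binding protein that has been linked to the circadian clock.

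In the KO libraries the genotype label was borne out by the targeted gene. Nono averaged 0.29 ± 0.244 CPM in KO and 163.5 ± 7.38 CPM in WT (SD, n = 6 each), with 0 to 4 counts in each KO library and 1147 to 1814 in each WT library, where CPM is a gene's count relative to its library total, corrected for library composition. Library totals lay between 4435596 counts in KO CT22 replicate 2 and 10911031 counts in WT CT22 replicate 3. The thin library KO CT22 replicate 2 has the largest counting error. As a check of the tissue label, 12 of 12 markers of dentate granule cells were read, with the most abundant, the calcium-binding protein gene Calb1, between 99.3 and 127 CPM. Markers of neighbouring tissues were read as well, so this does not tell the hippocampus from them.

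A pair of KO libraries stood apart from their CT label in clock genes. Dbp, a clock-controlled transcription factor gene, was at 90.9 CPM in the library labelled KO CT22 replicate 1, against 32.3 and 32.9 CPM in the other KO CT22 libraries and 43.2 to 59.6 CPM in WT CT22. In the library labelled KO CT10 replicate 3 it was at 33.6 CPM, against 93.7 and 106 CPM in the other KO CT10 libraries and 70.5 to 95.03 CPM in WT CT10. Nr1d1, a clock repressor gene, was at 124.6 CPM in the first of these libraries and 72.7 CPM in the second, against 69.3 to 81.3 CPM in WT CT22 and 108.0 to 113 CPM in WT CT10, and Nr1d2 and Arntl also lay on the side of the other label. Whether the labels of these libraries were exchanged cannot be told from the files, and they are used here as labelled. The library labelled KO CT22 replicate 1 also had the highest level of all 12 libraries in 12 of 12 dentate granule markers. Its Prox1, the homeobox gene of granule neurons, was at 148 CPM against 45.3 to 93.8 CPM elsewhere, and the summed level of the 12 markers was 1101 CPM against 485.9 to 752 CPM elsewhere. This library was also the highest in 7 of the 10 neurogenesis genes, so results are given with and without it where it bears on them. The part that tissue composition has in them was not tested, apart from the values given with dentate or choroid plexus markers as a covariate.

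The promoters of 4 of these genes are printed first. Dcx and Neurod1 are shown because both stood lower in WT CT22 than in WT CT10, and Mki67 and Top2a because they are the proliferation markers. Sox11 also stood lower in WT CT22, and its window is not printed. Windows of 250 bases before the start of the gene were read from RefSeq on build GRCm38.p6, 5′ to 3′ on the gene's own minus strand: Dcx at chrX:143933220-143933469 for the outer start site, Neurod1 at chr2:79456637-79456886, Mki67 at chr7:135716380-135716629 and Top2a at chr11:99024190-99024439. Capitals mark matches, on either strand, to CCAAT (the CCAAT box), TTTGAA (the cell cycle genes homology region), ACAAAG (a SOX core), and CAGCTG and CACGTG (E-boxes, the first used by proneural factors and the second by the clock factors). No marked match overlaps another.
Dcx: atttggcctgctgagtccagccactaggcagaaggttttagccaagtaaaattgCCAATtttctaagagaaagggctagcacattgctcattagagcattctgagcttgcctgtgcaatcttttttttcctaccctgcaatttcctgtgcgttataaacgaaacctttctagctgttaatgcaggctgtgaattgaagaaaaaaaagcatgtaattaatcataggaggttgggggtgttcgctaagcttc
Neurod1: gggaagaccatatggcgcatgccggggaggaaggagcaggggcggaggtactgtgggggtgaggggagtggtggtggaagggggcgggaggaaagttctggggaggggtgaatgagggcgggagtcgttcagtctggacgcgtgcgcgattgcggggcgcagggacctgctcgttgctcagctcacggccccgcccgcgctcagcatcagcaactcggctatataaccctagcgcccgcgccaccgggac
Mki67: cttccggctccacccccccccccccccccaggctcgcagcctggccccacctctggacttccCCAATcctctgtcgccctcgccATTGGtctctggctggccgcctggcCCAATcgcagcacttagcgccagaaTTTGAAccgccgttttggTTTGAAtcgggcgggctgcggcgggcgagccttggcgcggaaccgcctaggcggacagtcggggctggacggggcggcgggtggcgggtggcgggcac
Top2a: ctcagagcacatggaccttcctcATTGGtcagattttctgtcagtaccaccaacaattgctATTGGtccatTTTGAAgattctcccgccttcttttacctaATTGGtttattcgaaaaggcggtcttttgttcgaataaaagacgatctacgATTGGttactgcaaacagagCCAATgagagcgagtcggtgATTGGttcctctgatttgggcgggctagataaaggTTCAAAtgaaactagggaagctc
The Mki67 window holds 3 CCAAT matches and 2 TTTGAA matches, and the Top2a window 6 and 2. At least 3 CCAAT matches were found in 3.23% of the 27025 genes with a window, and these together with a TTTGAA match in 0.455%. The printed Dcx window has 1 CCAAT match and the Neurod1 window 0 matches to any of the 5 motifs. A second Dcx window, chrX:143933125-143933374 for the inner start site, is not printed. It has 1 ACAAAG match and 0 CCAAT matches, and both Dcx windows enter the counts of genes below. RefSeq windows were found for 8 of the 10 genes, with none for Ccnd2 and Igfbpl1. Over the 8, CCAAT was found in 7 genes (37.5% of all genes), TTTGAA in 3 (18.3%), ACAAAG in 2 (18.6%), CAGCTG in 2 (14.7%) and CACGTG in 0 (6.86%). A match describes letters in this window only.

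The 10 genes covered a wide span of levels. On the deposited TPM scale, which divides by transcript length, Ccnd2 averaged 44.8 ± 5.63 TPM over the 12 libraries and Sox2 34.1 ± 6.21 TPM (SD, n = 12 each). Neurod1 was at 21.96 ± 5.07 TPM and Sox4 at 12.3 ± 2.06 TPM. Igfbpl1 was at 8.56 ± 3.65 TPM, Dcx at 6.71 ± 1.51 TPM and Sox11 at 5.42 ± 0.80 TPM. Top2a, Eomes and Mki67 were much lower, at 1.41 ± 0.309, 0.973 ± 0.519 and 0.645 ± 0.218 TPM. Neighbours in this order overlapped in their ranges over libraries, except that the lowest Sox11 value, 4.12 TPM, lay above the highest Top2a value, 1.89 TPM. In tissue RNA of this kind, fewer cells of a type and less RNA per cell cannot be told apart.

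**Figure D1:**
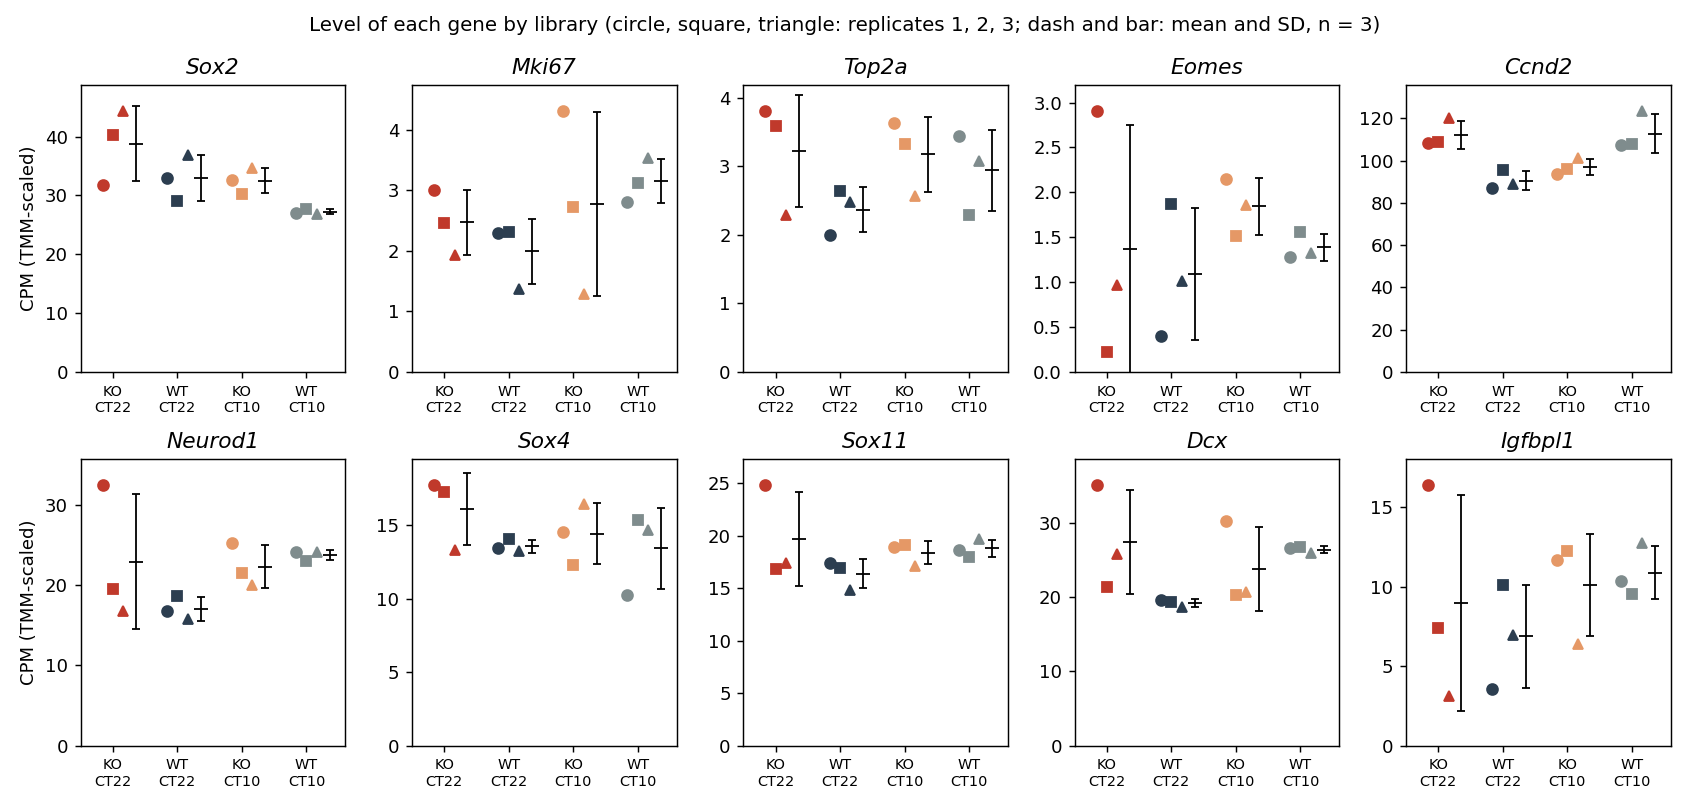
Level of each of the 10 genes in CPM (linear axes from 0) in KO CT22, WT CT22, KO CT10 and WT CT10. Points are libraries, with circle, square and triangle for replicates 1, 2 and 3, and the dash and bar are the group mean and SD (n = 3). Ccnd2 is higher in KO CT22 than in WT CT22 and lower in KO CT10 than in WT CT10, without overlap in either pair, and KO CT22 replicate 1 is the highest library in 7 of the 10 panels.

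Ccnd2 encodes cyclin D2, a G1 cyclin that adult hippocampal progenitors depend on to divide. It spans chr6:127125709-127151048 on the minus strand (build mm10, as all gene positions here) and was the deepest of the 10 genes, with 485 to 1080 counts per library. Ccnd2 averaged 103 CPM over the 12 libraries, against 2.60 CPM for Mki67, and the cells that its RNA came from were not tested. It was at 108, 109 and 120.0 CPM in KO CT22, against 86.9, 95.5 and 88.8 CPM in WT CT22. In KO CT10 it was at 93.8, 96.0 and 101.4 CPM, against 107, 108 and 123.5 CPM in WT CT10. All KO libraries therefore lay above the WT libraries at CT22 and below them at CT10, and all KO CT22 libraries lay above the KO CT10 libraries while all WT CT22 libraries lay below the WT CT10 libraries.

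The log2 change of Ccnd2 between KO and WT was 0.31 at CT22 (SE 0.0834, 95% interval 0.136 to 0.491, edgeR adjusted p = 0.377) and −0.22 at CT10 (SE 0.0834, interval −0.394 to −0.0384, adjusted p = 1). The difference between these effects was 0.53 (SE 0.118, interval 0.279 to 0.781), the lowest unadjusted p of the 14131 genes tested, yet it did not pass after adjustment over all genes (edgeR adjusted p = 0.737). Over both CT labels the opposite directions left a log2 change of 0.05 (SE 0.0589, adjusted p = 0.914). Groups separated in opposite directions in this way, between KO and WT at CT22 and at CT10, were found in 63 of the 14131 genes (0.446%). The library labelled KO CT22 replicate 1, at 108 CPM, lies within the range of WT CT10, so the separation at CT10 holds with the libraries as labelled. With that library left out the difference was 0.55, and without it and the library labelled KO CT10 replicate 3 it was 0.59. Over the runs that leave out 1 library it lay between 0.46 and 0.57, and its adjusted p between 0.469 and 0.976.

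Between CT22 and CT10, the log2 change of Ccnd2 was 0.21 in KO (SE 0.0837, edgeR adjusted p = 0.977) and −0.32 in WT (SE 0.0831, edgeR adjusted p = 0.722). The same 4 groups enter these changes and those between genotypes, so they restate the crossing of the groups.

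Dcx, the marker of migrating neuroblasts and immature neurons, spans chrX:143855842-143933219 on the minus strand and had 95 to 350 counts per library. It was at 35.1, 21.3 and 25.7 CPM in KO CT22, against 19.6, 19.3 and 18.6 CPM in WT CT22. In KO CT10 it was at 30.3, 20.3 and 20.6 CPM, against 26.6, 26.7 and 25.9 CPM in WT CT10. The WT libraries of a CT label lay close together and the KO libraries were spread, with replicate 1 the highest in both KO groups. The SD was 7.03 CPM in KO CT22 and 0.515 CPM in WT CT22, and 5.66 CPM in KO CT10 and 0.446 CPM in WT CT10 (n = 3 each). The WT spread is smaller than counting error alone would give. The exact 95% Poisson interval was 170 to 225 counts for the 196 counts of WT CT22 replicate 1. For the 208 counts of WT CT10 replicate 1 it was 181 to 238 counts. Nothing is therefore read from how close the WT libraries lay.

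All KO CT22 libraries lay above all WT CT22 libraries in Dcx (log2 change 0.54, SE 0.172, 95% interval 0.169 to 0.904, edgeR adjusted p = 0.397). The nearest libraries were KO CT22 replicate 2 at 21.3 CPM and WT CT22 replicate 1 at 19.6 CPM. The former rests on 95 counts (exact 95% Poisson interval 76.9 to 116 counts), so this gap is within its counting error. At CT10 the log2 change was −0.15 (SE 0.172, adjusted p = 1), with overlapping groups. It was −0.36 without KO CT10 replicate 1 and −0.05 without KO CT10 replicate 2 or without the library labelled KO CT10 replicate 3. The difference between these effects was 0.68 (SE 0.243, edgeR adjusted p = 0.737). Without the library labelled KO CT22 replicate 1 the CT22 change was 0.30 and the difference 0.45. In WT, Dcx was lower at CT22 than at CT10 without overlap (log2 change −0.46, SE 0.172, edgeR adjusted p = 0.722), and this change lay between −0.47 and −0.44 whichever library was left out. In KO the CT22 and CT10 libraries overlapped (log2 change 0.22, adjusted p = 0.977).

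Dcx was counted as 4 transcripts from 2 start sites, and the estimates for single transcripts were unstable, since each was at 0 in 2 to 7 of the 12 libraries. The transcript from the inner start site, at position 143933124, took 46.8% of the pooled Dcx counts, 60.0% in KO and 33.4% in WT. No use is made of these shares.

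Neurod1, a proneural transcription factor that drives granule neuron differentiation, lies at chr2:79452641-79456636 on the minus strand. It was at 32.5, 19.5 and 16.8 CPM in KO CT22, against 16.7, 18.7 and 15.8 CPM in WT CT22. In KO CT10 it was at 25.3, 21.5 and 20.1 CPM, against 24.2, 23.0 and 24.1 CPM in WT CT10. As with Dcx, replicate 1 was the highest library of both KO groups, and all WT CT22 libraries lay below all WT CT10 libraries. The log2 change was 0.45 between KO and WT at CT22 (SE 0.194, edgeR adjusted p = 0.426), but 0.07 without the library labelled KO CT22 replicate 1. It was −0.09 at CT10 (adjusted p = 1), and −0.48 between CT22 and CT10 in WT (SE 0.193, edgeR adjusted p = 0.722).

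Sox11, a SoxC transcription factor of neuroblasts that acts on Dcx, lies at chr12:27334268-27342718 on the minus strand. It was at 24.8, 16.8 and 17.4 CPM in KO CT22, against 17.4, 16.9 and 14.9 CPM in WT CT22. In KO CT10 it was at 18.9, 19.1 and 17.1 CPM, against 18.7, 18.0 and 19.7 CPM in WT CT10. Apart from the library labelled KO CT22 replicate 1, all values lay between 14.9 and 19.7 CPM. The log2 change between KO and WT at CT22 was 0.29 (SE 0.145, edgeR adjusted p = 0.48), and 0.06 without that library. In WT the CT22 libraries lay below the CT10 libraries (log2 change −0.20, SE 0.144, edgeR adjusted p = 0.757). The other SoxC member, Sox4, was at 17.7, 17.3 and 13.3 CPM in KO CT22, against 13.4, 14.1 and 13.2 CPM in WT CT22, and at 14.5, 12.3 and 16.4 CPM in KO CT10, against 10.2, 15.3 and 14.7 CPM in WT CT10. Its groups overlapped in each comparison.

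**Figure D2:**
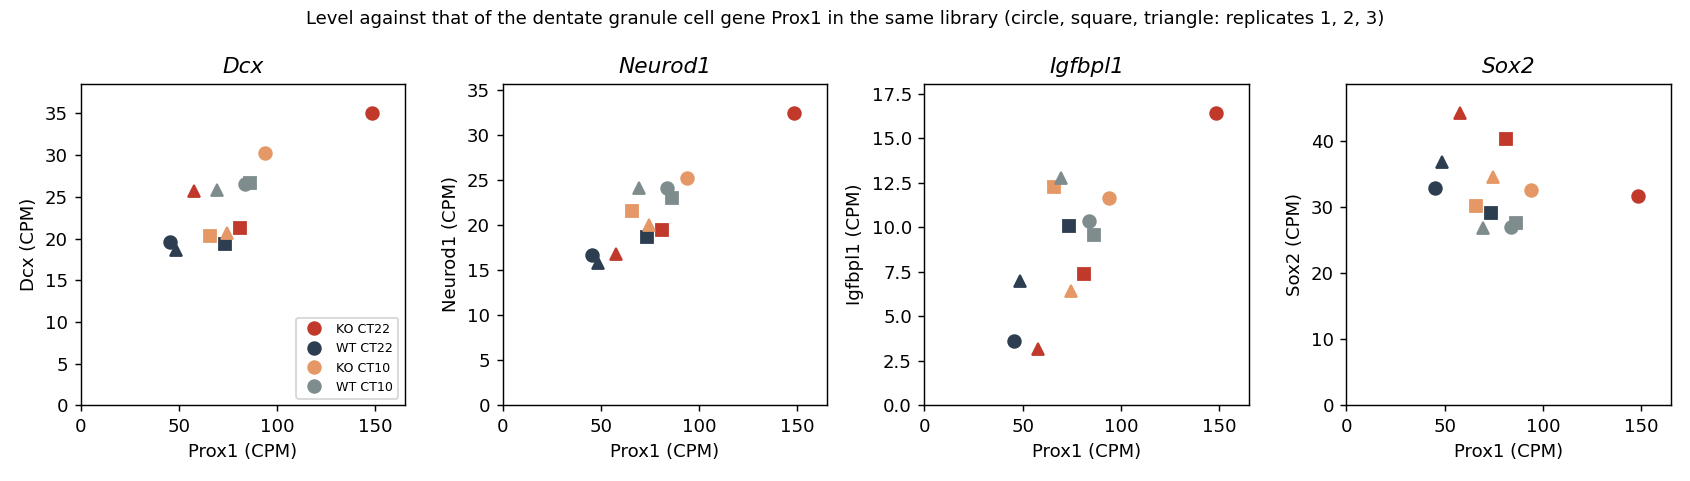
Dcx, Neurod1, Igfbpl1 and Sox2 (vertical axes, CPM) against the granule neuron gene Prox1 (horizontal axes, CPM) in the 12 libraries, coloured by group, with circle, square and triangle for replicates 1, 2 and 3. The library labelled KO CT22 replicate 1 lies at the right, with 148 CPM of Prox1 and the highest Dcx, Neurod1 and Igfbpl1, while its Sox2 is the lowest of its group.

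Granule neuron markers were unequal between the libraries in which these genes were read. WT CT22 replicates 1 and 3 had the lowest Prox1, 45.3 and 48.8 CPM, and the lowest Neurod1, 16.7 and 15.8 CPM. WT CT22 replicate 2 had 73.7 CPM of Prox1 with 19.3 CPM of Dcx, and KO CT22 replicate 3 had 57.6 CPM of Prox1 with 25.7 CPM of Dcx. The latter library also had the highest summed markers of the subventricular zone and striatal lineage, 224.7 CPM, and of choroid plexus, 5225 CPM. The part of such tissue in its Dcx value was not tested. The summed dentate markers were 527.6 to 1101 CPM in KO CT22, against 485.9 to 705.4 CPM in WT CT22, and 625.6 to 705.7 CPM in KO CT10, against 684 to 752 CPM in WT CT10. In KO CT22 against WT CT22, 12 of 12 dentate markers had a log2 change above 0 (median 0.327), and in WT CT22 against WT CT10, 10 of 12 were below 0 (median −0.301). The score of this list, a covariate chosen after the data were seen, was highest in KO CT22 replicate 1, at 0.742. With it the log2 change between KO and WT at CT22 was 0.37 for Dcx, 0.14 for Neurod1 and 0.33 for Ccnd2. Without it these were 0.54, 0.45 and 0.31. The part of tissue composition in the Ccnd2 change was not tested beyond this.

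Igfbpl1, which encodes a secreted relative of the IGF-binding proteins read in immature neurons, was the least even of the well-counted genes. It was at 16.4, 7.39 and 3.14 CPM in KO CT22, against 3.602, 10.1 and 6.97 CPM in WT CT22. In KO CT10 it was at 11.7, 12.3 and 6.41 CPM, against 10.3, 9.58 and 12.8 CPM in WT CT10. The highest and the lowest library, 5.23-fold apart, were both in KO CT22. The log2 change between KO and WT at CT22 was 0.43 (SE 0.538, edgeR adjusted p = 0.781), and −0.49 without the library labelled KO CT22 replicate 1.

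Sox2, the factor of neural stem cells, followed another pattern. It lies at chr3:34650005-34652460 on the plus strand, within a single exon, and had 180 to 402 counts per library. It was at 31.8, 40.3 and 44.3 CPM in KO CT22, against 33.0, 29.1 and 36.9 CPM in WT CT22. In KO CT10 it was at 32.6, 30.3 and 34.6 CPM, against 27.1, 27.7 and 26.9 CPM in WT CT10. All KO CT10 libraries lay above all WT CT10 libraries, and all WT CT22 libraries above all WT CT10 libraries, whereas KO CT22 and WT CT22 overlapped.

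Over both CT labels Sox2 had the lowest p of the 10 genes, with a mean of 35.7 ± 5.50 CPM in KO and 30.1 ± 4.01 CPM in WT (SD, n = 6 each). The log2 change was 0.24 (SE 0.0892, 95% interval 0.0523 to 0.432) and did not pass after adjustment (edgeR adjusted p = 0.703). It was 0.23 at CT22 and 0.26 at CT10 (edgeR adjusted p = 0.512 and 1). Unlike the immature neuron genes, its change was larger without the library labelled KO CT22 replicate 1, at 0.31 over both labels and 0.35 at CT22 (edgeR adjusted p = 0.324 and 0.509). Without KO CT22 replicate 3 it was 0.18 over both labels and 0.10 at CT22, and without WT CT22 replicate 2 it was 0.15 at CT22. With choroid plexus markers as the covariate it was 0.19 over both labels. With the dentate score, chosen after the data were seen, it was 0.28 over both labels (edgeR adjusted p = 0.259), 0.34 at CT22 and 0.22 at CT10. Between CT22 and CT10 the change was 0.25 in KO (edgeR adjusted p = 0.977) and 0.28 in WT (SE 0.126, edgeR adjusted p = 0.722). Summed astrocyte markers, the other likely source of Sox2 RNA, were 5072 to 5762 CPM in KO CT22, against 4601 to 5306 CPM in WT CT22, and 4623 to 5533 CPM in KO CT10, against 4965 to 5876 CPM in WT CT10. Of the 10 astrocyte markers 3 were above 0 in KO against WT over both labels (median log2 change −0.106), and their part in the Sox2 values was not tested.

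The genes of dividing cells rest on few counts. Mki67, the proliferation antigen Ki-67, was at 3.01, 2.46 and 1.93 CPM in KO CT22, against 2.30, 2.31 and 1.38 CPM in WT CT22, and at 4.31, 2.73 and 1.28 CPM in KO CT10, against 2.81, 3.12 and 3.53 CPM in WT CT10. These are 11 to 38 counts per library. The WT CT22 libraries lay below the WT CT10 libraries (log2 change −0.66, SE 0.369, edgeR adjusted p = 0.729), while KO CT10 spanned the whole range. Top2a, the topoisomerase of replicating cells, was at 3.81, 3.59 and 2.29 CPM in KO CT22, against 2.00, 2.63 and 2.48 CPM in WT CT22, and at 3.63, 3.33 and 2.56 CPM in KO CT10, against 3.45, 2.29 and 3.08 CPM in WT CT10, with groups overlapping in each comparison.

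Eomes, the factor of intermediate progenitors, had 1 to 29 counts per library. It was at 2.91, 0.224 and 0.966 CPM in KO CT22, against 0.40, 1.87 and 1.01 CPM in WT CT22, and at 2.15, 1.51 and 1.86 CPM in KO CT10, against 1.28, 1.56 and 1.32 CPM in WT CT10. The single count in KO CT22 replicate 2 has an exact 95% Poisson interval of 0.0253 to 5.57 counts, which covers counting error only, and lies under the level of 0.672 CPM that 3 counts would give there. Eomes did not pass (log2 change between KO and WT over both labels 0.47, SE 0.406, 95% interval −0.399 to 1.34, edgeR adjusted p = 0.866).

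**Figure D3:**
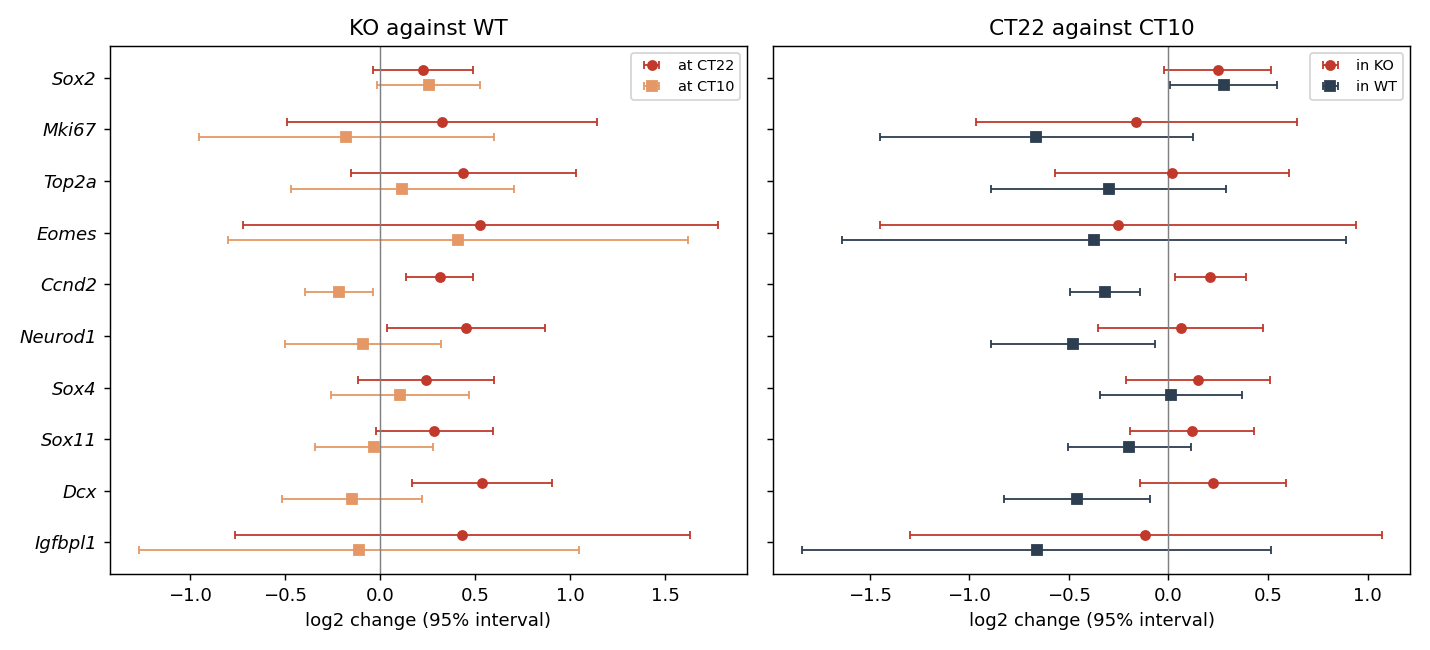
Log2 changes of the 10 genes with 95% intervals from edgeR's quasi-likelihood fit, KO against WT at CT22 (circles) and CT10 (squares) on the left, and CT22 against CT10 in KO (circles) and WT (squares) on the right. The intervals of Ccnd2 lie on opposite sides of 0 in both panels, and the intervals of Igfbpl1 and Eomes are the widest.

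Set side by side, the 10 genes gave no call in any of the 6 comparisons at an adjusted p of 0.05. For KO against WT over both CT labels, 0 of 10 passed, against 0.0212% of all genes tested, and 10 of 10 had a log2 change above 0 (median 0.178), against 7324 of 14131 genes (median 0.00514). In that comparison 1 of the 10 had an unadjusted p under 0.05 in edgeR, against 6.35% of all genes, and DESeq2 called 0 of them as well. None of the 10 had all 6 KO libraries on a single side of the 6 WT libraries, as 0.446% of genes did. Without the library labelled KO CT22 replicate 1, 6 of 10 were above 0 (median 0.04). Some other lists were uneven as well in the same comparison: 10 of 10 choroid plexus markers (median 1.29), 9 of 10 meningeal markers (0.63) and 9 of 10 neocortex markers (0.162) were higher in KO, and 0 of 10 microglia markers (−0.124). Others were more even, with 5 of 10 endothelial, 4 of 10 ependymal, 7 of 12 oligodendrocyte precursor and 8 of 12 subventricular zone and striatal markers higher. The part of other tissue in the 10 genes was not tested over both labels beyond the dentate and choroid plexus covariates. With the choroid plexus covariate 10 of 10 were above 0 (median 0.19). The authors' deposited table of the same comparison lists log2 ratios of 0.0374 to 0.443 for these genes, with an adjusted p of at least 0.832.

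For KO against WT at CT22, 10 of 10 genes were above 0 (median log2 change 0.38, against 0.0036 over all genes). The adjusted threshold was passed by 0 of 10 (0.0142% of all genes), and 3 had an unadjusted p under 0.05, against 10.9% of all genes. KO and WT libraries did not overlap in 2 of the 10, Ccnd2 and Dcx, both higher in KO, against 13.7% of all genes. Without the library labelled KO CT22 replicate 1, 8 of 10 were above 0 (median 0.13). At CT10, 4 were above 0 and 6 below (median −0.06), 0 of 10 passed (0.00708% of all genes) and 1 had an unadjusted p under 0.05, against 3.09% of all genes. Without the library labelled KO CT10 replicate 3 the balance turned, with 7 above 0 (median 0.08), and without WT CT10 replicate 3, 6 were above 0. The groups did not overlap in 2 of 10, Sox2 higher and Ccnd2 lower, against 10.3% of all genes. Both shares are close enough to those of all genes that, over 10 genes, nothing is read from them. For the difference between the effects 0 of 10 passed (0.0% of all genes), with 9 above 0 (median 0.411) and 2 with an unadjusted p under 0.05, against 6.09% of all genes. The median was 0.11, with 8 above 0, without the library labelled KO CT22 replicate 1, and 0.07, with 6 above 0, without it and the library labelled KO CT10 replicate 3.

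CT22 against CT10 in WT gave the most separated groups. The libraries did not overlap in 6 of 10 genes, against 16.2% of all genes: Sox2 was higher at CT22, and Dcx, Neurod1, Sox11, Mki67 and Ccnd2 were lower. The gap was narrow in Sox11, from at most 17.4 CPM in WT CT22 to at least 18.0 CPM in WT CT10. Mki67 rests on 15 to 30 counts per WT library. Of the 10 genes 2 were above 0 and 8 below (median log2 change −0.346, against −0.0001 over all genes), 4 had an unadjusted p under 0.05 (6.76% of all genes) and 0 passed the adjusted threshold (0.0% of all genes). With the dentate score as a covariate, chosen after the data were seen, the median was −0.14, with 3 above 0. The change was then −0.25 for Neurod1, −0.33 for Dcx, −0.09 for Sox11, −0.54 for Mki67, −0.34 for Ccnd2 and 0.17 for Sox2. The same comparison in KO gave 7 genes above 0 and 3 below (median 0.0905), 1 gene without overlap, Ccnd2, against 7.96% of all genes, 1 with an unadjusted p under 0.05 (3.16% of all genes), and 0 past the threshold (0.0% of all genes). Without the library labelled KO CT22 replicate 1, 3 genes were above 0 in KO (median −0.14).

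A wider list of 151 genes of adult neurogenesis, 141 of them tested, also held 0 genes past the threshold in the 6 comparisons. Over both labels 90 were higher and 51 lower in KO (median log2 change 0.0524), and 14 had an unadjusted p under 0.05, or 9.93% against 6.35% of all genes. Among genes of radial glia-like stem cells 17 of 21 were higher (median 0.0837). Sox9, a factor of stem cells and astrocytes, averaged 33.5 ± 4.51 CPM in KO and 26.9 ± 4.98 CPM in WT (SD over 6 libraries each; log2 change 0.33 with edgeR adjusted p = 0.46). The most abundant genes of the group, which astrocytes share, stood the other way or level: the glutamate transporter gene Slc1a3 averaged 716 ± 51.0 CPM in KO and 806 ± 90.5 CPM in WT (log2 change −0.17), Gfap, the astrocyte filament protein gene, had a log2 change of 0.04, and Hopx, a gene of quiescent stem cells, −0.02.

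Committed progenitor genes were higher in KO in 4 of 11 (median −0.0225). Mycn, the N-Myc gene of dividing progenitors, had the lowest adjusted p of the wider list, with 12.7 ± 1.51 CPM in KO and 8.93 ± 1.2 CPM in WT (SD over 6 libraries each; log2 change 0.51 with edgeR adjusted p = 0.267). At CT22 it averaged 12.1 ± 0.583 CPM in KO and 9.57 ± 1.41 CPM in WT, and at CT10 13.2 ± 2.09 CPM in KO and 8.30 ± 0.602 CPM in WT (n = 3 each). The growth factor binding protein gene Igfbp5 averaged 233 ± 37.9 CPM in KO and 191 ± 18.7 CPM in WT (log2 change 0.28, edgeR adjusted p = 0.611), the RNA-binding protein gene Elavl4 had a log2 change of 0.12 and the calretinin gene Calb2 −0.21. Calb2 was also the most abundant gene on the list of thalamus and habenula markers, so its value is not one of progenitors alone.

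Immature granule neuron genes were higher in 17 of 24 (median 0.0688), with Dpysl3, a growth cone protein gene, at 32.5 ± 2.10 CPM in KO and 28.3 ± 3.26 CPM in WT (SD over 6 libraries each; log2 change 0.21 with edgeR adjusted p = 0.694). The most abundant genes of that group had log2 changes of −0.08 for Nnat, −0.18 for the tubulin gene Tubb2b and −0.06 for the stathmin family gene Stmn2. Of 34 genes of DNA replication and mitosis 18 were higher (median 0.0336). Among them the mitotic kinase gene Aurka averaged 1.41 ± 0.18 CPM in KO and 2.08 ± 0.708 CPM in WT (log2 change −0.53, edgeR adjusted p = 0.752). The cell cycle inhibitor gene Cdkn1b had a log2 change of 0.16, the topoisomerase gene Top2b 0.15, Cdk4 0.11 and Ccnd1, the paralog of Ccnd2, −0.07.

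Among niche signals and receptors 27 of 42 were higher (median 0.0591), with log2 changes of 0.60 for the Wnt inhibitor gene Sfrp1 and 0.30 for Notch2 (edgeR adjusted p = 0.708 and 0.73). The most abundant of these, the BDNF receptor gene Ntrk2, Dkk3 and the transcription factor gene Tcf4, had −0.05, −0.05 and 0.07. Of 9 relatives of the Sox members 7 were higher (median 0.0316), with 0.42 for Sox17 and 0.30 for Sox18, both of endothelial cells, 0.03 for Sox10 and for Sox8, both of oligodendroglia, and −0.07 for the SoxC member Sox12. Of the wider list 10 genes had too few counts to be tested, and Dkk1 had 0 counts in the 12 libraries. These genes were Tfap2c, Neurod4, Gal, Cdk6, Aurkb, Bub1, Birc5, Ube2c, Dkk1 and Fgf2.

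Over the 12 libraries, the 5 genes nearest to Dcx in gene-centred log2 CPM were AW146020, Adamts3, Nup155, Rev3l and Zfp26, with root mean square differences of 0.0879, 0.11, 0.119, 0.124 and 0.124, of 13074 genes with a mean of at least 2 CPM. Among the neurogenesis genes Neurod1 was the nearest, at rank 72 (0.162), followed by Sox11 at rank 132 (0.173) and Ccnd2 at rank 1632 (0.237). Sox2 was at rank 10017 (0.383) and Igfbpl1 at rank 12718 (0.598). Prox1 was at rank 3808 (0.279). A gene with no variation would be at 0.275, and 3540 genes lay nearer than that. These distances describe 12 libraries that differ in depth and tissue.

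Markers of other cells that could carry these genes were read in all libraries, with 0 listed genes at 0 counts over the series. Summed oligodendrocyte precursor markers, of cells that also divide, were even, at 1001 to 1077 CPM in KO CT22, against 992.4 to 1060 CPM in WT CT22, and at 959.7 to 1117 CPM in KO CT10, against 1012 to 1070 CPM in WT CT10. Their most abundant gene, Bcan, averaged 329 CPM. Summed markers of the subventricular zone and striatal lineage, tissue outside the hippocampus that also holds neuroblasts, were at 103.7 to 224.7 CPM in KO CT22, against 116.3 to 135 CPM in WT CT22, and at 121.6 to 129.9 CPM in KO CT10, against 107.1 to 127.2 CPM in WT CT10. Their highest value was in KO CT22 replicate 3 and their lowest in KO CT22 replicate 1, and their part in the results was not tested. Choroid plexus markers were the most uneven, from 226.8 CPM in KO CT22 replicate 1 to 5225 CPM in KO CT22 replicate 3.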

How the data were processed

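The submitters' processing notes name the build mm10 and the tools TopHat 1.3.3, RSEM 1.2.5, edgeR 3.0.6 and FastQC. The deposited files give an estimated count and a TPM value per transcript, per the file headers. Log2 ratios of KO over WT come from the table that the authors deposited. It also holds a p-value per gene, by the authors, with its adjusted value. The use of strand in counting is not given, so Ccnd2, Eomes, Neurod1 and Sox4, which overlap annotated genes on the opposite strand, are uncertain to that extent. Neurod1 also overlaps Cerkl by 86 bases on the same strand, which the use of strand would not settle.

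Estimated counts were summed per gene and rounded. In R 4.3.3, edgeR 4.0.16 kept 14131 genes (filterByExpr, minimum count 10), scaled the 12 libraries by TMM (factors 0.979 to 1.02) and fitted 4 group means with a robust quasi-likelihood model. P-values were adjusted by Benjamini and Hochberg over the whole table, with a threshold of 0.05. Samples were grouped by their titles. The procedure was tested on simulated data. DESeq2 1.42.0, other scalings, filters, covariates and left-out libraries were alternatives. Same-numbered libraries did not deviate together, so no pairing was used.

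The genes and lists were chosen with earlier results of these data known. Named were Nono, the 10 genes in every comparison, of the wider list those past the threshold and, per role, the 3 most abundant and the 2 with the lowest p over both labels, and the 5 genes nearest to Dcx. The clock genes and Prox1 were named after their values were seen. The most abundant gene is given for the lists of dentate granule cells, of oligodendrocyte precursors, and of thalamus and habenula. A gene of the wider list that this rule takes is not reported here.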

Additional observations from a re-analysis of the deposited data

Results flagged for a closer look

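Sox11 in the library labelled KO CT22 replicate 1, at 24.8 CPM, stood far from the other 5 KO libraries, which lay between 16.8 and 19.1 CPM. It was found among 20 groups of 6 libraries, of which chance flags about 1 in 20. The same library had the most Prox1 (148 CPM), and the part of tissue composition in the Sox11 value was not tested.

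The effect of genotype on Ccnd2 differed in direction between the CT labels, with all KO libraries above WT at CT22 and all below at CT10. The test of the difference gave a log2 value of 0.53 (SE 0.118, edgeR adjusted p = 0.737), with 95% interval 0.279 to 0.781, which does not pass over all genes.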

How the results depend on the processing

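Of 755 recomputed values of the 10 genes, in 33 results, 0 passed the threshold, 741 kept their direction and 14 turned, in 6 results. This tally does not cover every gene in every comparison. For KO against WT at CT10 it holds only Sox2, Neurod1, Ccnd2 and Dcx, and for CT22 against CT10 in KO only Sox2, Ccnd2 and Dcx. With 1 library left out, the genes above 0 numbered 3 to 7 in the former comparison (4 with all libraries). In the latter they numbered 3 to 10 (7 with all libraries). The alternatives without KO CT10 replicate 3 and KO CT22 replicate 1, which stand apart in clock genes, and with the dentate score as a covariate were chosen after seeing the data. Without those libraries the log2 change was −0.12 for Eomes and −0.18 for Igfbpl1 in KO against WT over both labels, −0.49 for Igfbpl1 at CT22 and −0.10 for Dcx between CT22 and CT10 in KO. With the dentate score Igfbpl1 was at −0.18 over both labels and −0.46 at CT22. Leaving out 1 library at a time gave, over both labels, −0.12 to 0.76 for Eomes, −0.00945 to 0.28 for Neurod1, −0.18 to 0.25 for Mki67 and −0.30 to 0.38 for Igfbpl1, and −0.49 to 0.87 for Igfbpl1 at CT22 and −0.00922 to 0.43 for Dcx between CT22 and CT10 in KO.

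Over all genes, KO against WT over both labels called 3 genes, against 10 with no low-count filter, 21 in DESeq2, 1 with the replicate block, 1 with the choroid plexus score, 1 without the 2 clock libraries, 10 with the dentate score, and 1 to 8 with a library left out. At CT22 it called 2, against 29 in DESeq2, 1 with the replicate block, 1 from only the 6 libraries of the contrast, 1 without the clock libraries, and 1 to 4 with a library left out. At CT10 it called 1, against 3 in DESeq2 and 4 from only its 6 libraries. CT22 against CT10 called 0 in WT, against 4 in DESeq2, 2 from only its 6 libraries, 1 without the clock libraries and 0 to 1 with a library left out, and 0 in KO, against 1 without the clock libraries. The cause was not tested. Replicate numbers did not pair the libraries: correlations of deviations of same-numbered libraries were −0.237 to 0.328, and −0.295 to 0.287 for other pairs. Eomes, Mki67 and Top2a rest on 1 to 38 counts per library.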
